A study of Mus musculus with 6 samples.

Results

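The genes described here are the D-type cyclins Ccnd1, Ccnd2 and Ccnd3, their kinase partners Cdk4 and Cdk6, and 5 inhibitors of cyclin-dependent kinases (CDKs), Cdkn1a, Cdkn1b, Cdkn2a, Cdkn2b and Cdkn2c, in a mouse B-cell line with and without added FOG1. They were found as the probe sets that the array platform's annotation ties to exactly 1 symbol, that of one of these 10 genes. The rule gave 10 probe sets for 9 genes, out of 34760 probe sets in all and 19937 genes with a probe set of their own. Cdkn1b had 2 probe sets and the other 8 genes had 1 each. The only probe set of Cdkn1a also carries the symbol 4930567H12Rik, so no value is given for this gene.

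D-type cyclins bind and activate CDK4 and CDK6 when cells receive growth signals, and the active kinases phosphorylate the retinoblastoma protein, which frees E2F factors to switch on the genes of DNA replication. The INK4 inhibitors, encoded by Cdkn2a, Cdkn2b and Cdkn2c, bind CDK4 and CDK6 themselves. The Cip/Kip inhibitors, encoded by Cdkn1a and Cdkn1b, bind cyclin and kinase complexes and act above all on CDK2. In B-cell precursors, cyclin D2 and cyclin D3 are the D cyclins known to couple cytokine and pre-B receptor signals to division.

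The study compared 230-238 cells infected with a plasmid encoding GFP alone (3 arrays) with 230-238 cells infected with a plasmid encoding GFP and FOG1 (3 arrays). FOG1 is the product of Zfpm1 and a partner of GATA factors. All cells grew for 3 days in RPMI1640 medium after infection, were sorted as GFP-positive and grew for 4 more days before RNA was taken without DNase treatment. All results therefore come from a single cell line, and the labels call the replicates biological without stating separate infections. The p-values below therefore cover the spread among these arrays only, which may be technical. The sources used here do not name the promoter that drives FOG1.

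The values are log2 signals, whose median over all arrays was 7.0. Zfpm1 lay at 9.41, 9.49 and 9.43 with GFP alone and at 10.21, 10.16 and 10.17 with FOG1, so each array matched its label. Markers were counted as reaching the median signal if the mean of at least 1 group did. Of 10 measured B-cell markers 9 reached it. Pax5 was at a mean of 12.14 and Ebf1 at 12.52 in GFP-alone cells, and at 12.15 and 12.57 with FOG1. Of the markers of other cells, 1 of 9 for T and NK cells, 1 of 9 for myeloid cells, 2 of 5 for erythroid cells and megakaryocytes and 5 of 6 for stromal cells reached it. The first principal component placed FOG1 replicate 1 at 1.15, between the GFP-alone arrays (-16.1 to -11.4) and FOG1 replicates 2 and 3 (17.0 and 24.3).

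Promoters were read because FOG1 acts through GATA factors and because some of these genes are known targets of MYC or E2F factors. RefSeq sequences on GRCm38.p6 were at hand for 12 promoters of 8 of the 10 genes, each from 250 bases before to 50 bases after a transcription start. The GATA motif was searched on both strands with the letters AGATAA, or AGATAG, or else TGATAA or TGATAG. The E-box bound by MYC was searched as CACGTG. The E2F motif was searched with the letters TTTCCCGC, or TTTCGCGC, or else TTTGCCGC or TTTGGCGC. Those of Ccnd3 are shown because this gene had the smallest p, and that of Cdk4 because it held the most matches. The 250 bases before each start are printed, with E-boxes in capitals.
Ccnd3 first start, chr17:47504801-47505050, plus strand: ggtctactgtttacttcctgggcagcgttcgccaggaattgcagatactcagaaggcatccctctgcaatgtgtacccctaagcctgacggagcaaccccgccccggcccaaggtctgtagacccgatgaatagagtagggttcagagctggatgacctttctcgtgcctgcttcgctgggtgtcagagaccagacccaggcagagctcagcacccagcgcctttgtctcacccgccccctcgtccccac
Ccnd3 second start, chr17:47593217-47593466, plus strand: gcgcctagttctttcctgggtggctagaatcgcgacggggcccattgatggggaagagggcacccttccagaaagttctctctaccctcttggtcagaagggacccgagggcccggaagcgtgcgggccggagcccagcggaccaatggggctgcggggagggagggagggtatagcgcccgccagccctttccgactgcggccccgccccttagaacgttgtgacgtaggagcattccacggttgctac
Cdk4, chr10:127063285-127063534, plus strand: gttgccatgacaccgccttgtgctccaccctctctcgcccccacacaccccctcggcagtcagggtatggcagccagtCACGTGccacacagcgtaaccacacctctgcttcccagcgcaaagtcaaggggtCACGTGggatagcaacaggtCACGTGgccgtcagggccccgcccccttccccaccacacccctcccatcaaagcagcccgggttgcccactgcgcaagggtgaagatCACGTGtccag

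Neither Ccnd3 window held any of these motifs. The Cdk4 window held 4 E-boxes, which began 172, 118, 98 and 11 bases before the start. Over all 12 promoters 3 held an E-box (Cdk4, Cdk6 and the second start of Cdkn2c), against 7.15% of the 32851 mouse promoters in the table. A GATA match was found in 1 (the first start of Cdkn1a), against 29.8% of all promoters. An E2F match was found in 1, the upstream start of Cdkn2a, against 2.26%. These matches describe letters in a short window and not sites in use.

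None of the 10 probe sets passed the threshold of 0.05 on p-values adjusted over all probe sets (limma with Benjamini-Hochberg), where 0.224% of all probe sets passed. At an unadjusted p under 0.05 there was 1 of 10, that of Ccnd3, against 12.5% of all probe sets. The 3 FOG1 arrays lay wholly on one side of the GFP-alone arrays for 3 of the 10 probe sets, those of Ccnd3, Cdk6 and Cdkn1b, against 19.6% of all. Neither count stands out from the share over the whole array. Over the 9 genes, taken at their brightest probe set, the median log2 change was 0.06, with 6 positive and 3 negative, against a median of -0.01 over all genes, of which 45.8% were positive.

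**Figure D1:**
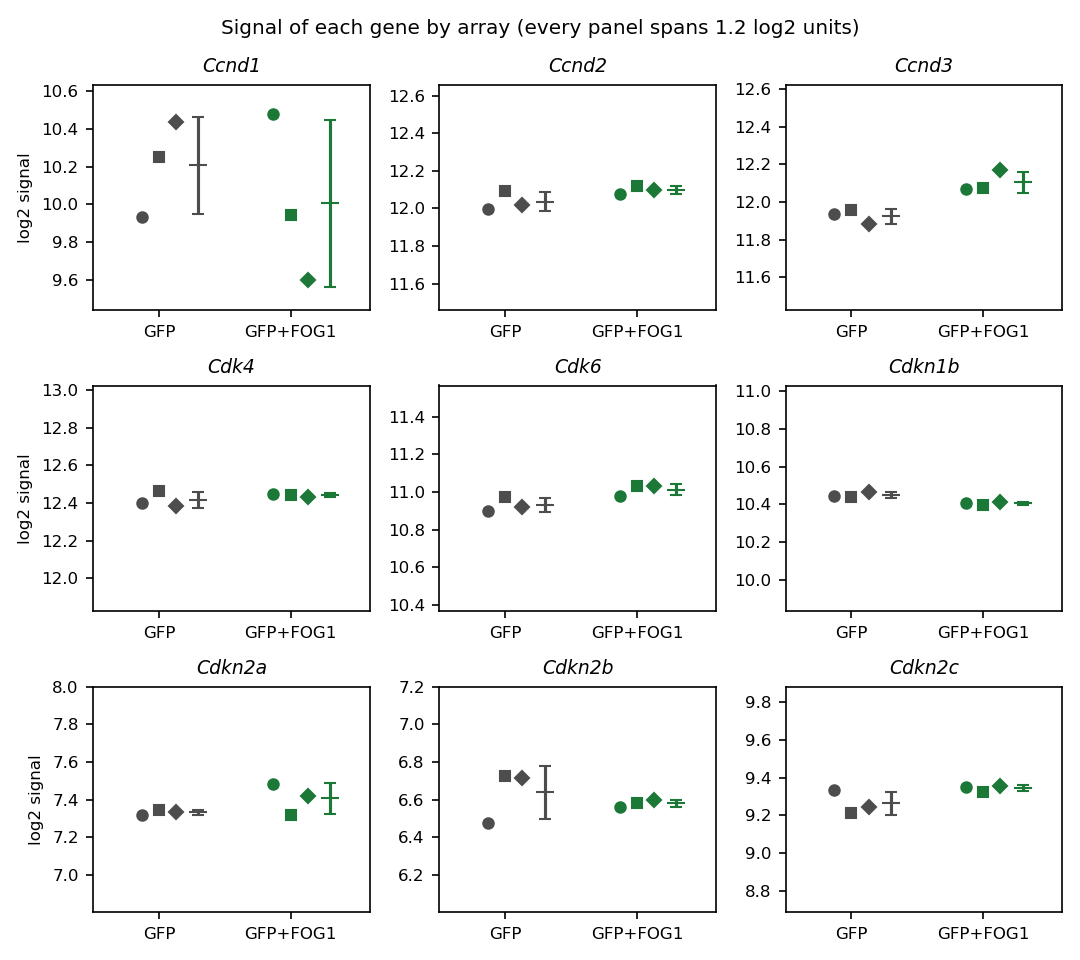
Log2 signal of the 9 measured genes on each array, with GFP-alone arrays in grey and GFP+FOG1 arrays in green. Circles, squares and diamonds are replicates 1, 2 and 3, bars are the mean ± SD (n = 3), and every panel spans 1.2 log2 units. Ccnd1 scatters over 0.51 log2 units with GFP alone and 0.88 with FOG1, while the groups lie apart for Ccnd3, Cdk6 and Cdkn1b.

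Ccnd3 encodes cyclin D3, which drives the expansion of pre-B cells, and its gene lies at chr17:47505051-47599689. Its signal was 11.93, 11.96 and 11.88 with GFP alone and 12.07, 12.08 and 12.17 with FOG1. Every FOG1 array was above every GFP-alone array. The log2 change was 0.18 (SE 0.050, 95% interval 0.06 to 0.30), or 1.13-fold, and it did not pass (limma adjusted p = 0.27). Over 14 other settings of the analysis the change stayed between 0.15 and 0.21 and its adjusted p between 0.131 and 0.54.

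Ccnd2 encodes cyclin D2, the D cyclin that cytokine and growth factor signals induce in many lymphoid cells, and lies at chr6:127125162-127152188. Its signal was 12.00, 12.09 and 12.02 with GFP alone and 12.08, 12.12 and 12.10 with FOG1. GFP-alone replicate 2 reached into the range of the FOG1 arrays, so the groups overlapped. Its log2 change of 0.06 (SE 0.047, 95% interval -0.05 to 0.17; limma adjusted p = 0.60) did not pass.

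Whether Ccnd3 and Ccnd2 differed from each other was asked within arrays. The log2 change of Ccnd3 exceeded that of Ccnd2 by 0.117, and the 3 FOG1 arrays lay above the 3 GFP-alone arrays in this difference. The exact two-sided permutation test gave p = 0.10, the smallest that 3 arrays against 3 allow, and 0.167 after adjustment over the 5 pairs of genes compared. Ccnd3 also exceeded Cdkn1b by 0.226 and Cdkn2c exceeded Cdkn1b by 0.125, both with groups apart (exact permutation p = 0.10 each, adjusted 0.167). For Ccnd3 against Cdkn1b this outcome was fixed, because the groups of each gene already lay apart in opposite directions. All pairs were picked after the values were seen, so their p-values are descriptive. For Cdk6 against Cdk4 the difference was 0.056 (exact permutation p = 0.20, adjusted 0.25), and for Ccnd3 against Ccnd1 it was 0.381 (exact permutation p = 0.30, adjusted 0.30), with overlapping groups in both. This test cannot go below 0.10 with 3 arrays per group, so it could not pass a threshold of 0.05 for any pair.

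Ccnd1 encodes cyclin D1, the D cyclin typical of fibroblasts and epithelial cells and usually low in B-lineage cells, and lies at chr7:144929931-144939831. Its signal was 9.93, 10.25 and 10.44 with GFP alone and 10.48, 9.94 and 9.60 with FOG1. Both the highest and the lowest array belonged to the FOG1 group. The log2 change was -0.20 with an SE of 0.24 (95% interval -0.77 to 0.37; limma adjusted p = 0.74). Without FOG1 replicate 3 the change was 0.004 and without FOG1 replicate 1 it was -0.437, so single arrays set its sign and size.

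The spread of Ccnd1 within groups was wide for this array. Its pooled within-group SD was 0.36, at percentile 97.7 of all probe sets, while the other 9 probe sets lay between percentiles 0.288 and 61.7. Stromal marker genes varied between the same arrays. The mean signal of the 6 markers was 7.92, 8.08 and 8.08 with GFP alone and 8.27, 8.03 and 7.59 with FOG1. Like Ccnd1, 5 of the 6 were highest on FOG1 replicate 1 and lowest on FOG1 replicate 3, a pattern found in 4.19% of all genes.

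Among these markers, Col1a1, a chain of type I collagen, was at 9.53, 9.73 and 9.70 with GFP alone and at 9.90, 9.61 and 8.99 with FOG1. Pdgfrb, a growth factor receptor of mesenchymal cells, was at 8.42, 8.54 and 8.65 with GFP alone and at 8.97, 8.59 and 7.59 with FOG1. Dcn, the gene of decorin, was the exception, at 5.69 to 5.92 on all arrays and below the median signal. No stromal marker passed in the comparison of the groups (0 of 6, with a smallest limma adjusted p of 0.65), against 0.161% of all genes. At an unadjusted p under 0.05 (limma) there were 0, against 11.0% of all genes. The SE of the change ran from 0.063 (Dcn) to 0.33 (Pdgfrb), so these counts do not show equal levels. In bulk RNA, fewer cells of a type and less RNA per cell cannot be told apart.

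The 8 genes whose centred values lay nearest to those of Ccnd1 were Aebp1, F2r, Dzip1, Ctsl, Epb41l3, Ecm1, Sgcd and Crip2. The root mean square difference was 0.046 to 0.062 log2 units over the 6 arrays, among 19928 genes compared. All 8 were lowest on FOG1 replicate 3, as Ccnd1 and 18.1% of all genes were, but only 1 of the 8 was also highest on FOG1 replicate 1. These genes were picked for their nearness to Ccnd1, so the likeness is a description. Ecm1 encodes an extracellular matrix protein. F2r, a thrombin receptor gene, was at 7.96, 8.17 and 8.37 with GFP alone and at 8.35, 7.86 and 7.55 with FOG1.

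With the mean stromal signal as a covariate in the fit, the log2 change of Ccnd1 was -0.12 and its SE 0.104 (95% interval -0.38 to 0.14; limma adjusted p = 0.67). The slope of Ccnd1 on the stromal signal was 1.33 log2 units per unit and did not pass (limma adjusted p = 0.168), where 0.288% of probe sets passed. This covariate was added after the values were seen, and most of its markers shared their highest and lowest arrays with Ccnd1. The smaller SE and the slope of Ccnd1 therefore follow in part from the choice and are descriptive. The slopes of the other 8 genes lay between -0.15 (Ccnd3) and 0.06 (Cdkn2a), and their changes between groups moved by at most 0.0095. The stromal signal had similar means in both groups, so only a steep slope could have moved a change by much. Which cells made the RNA of these markers, the line itself or others, was not tested. A shared source of the Ccnd1 and marker signals was not tested either.

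**Figure D2:**
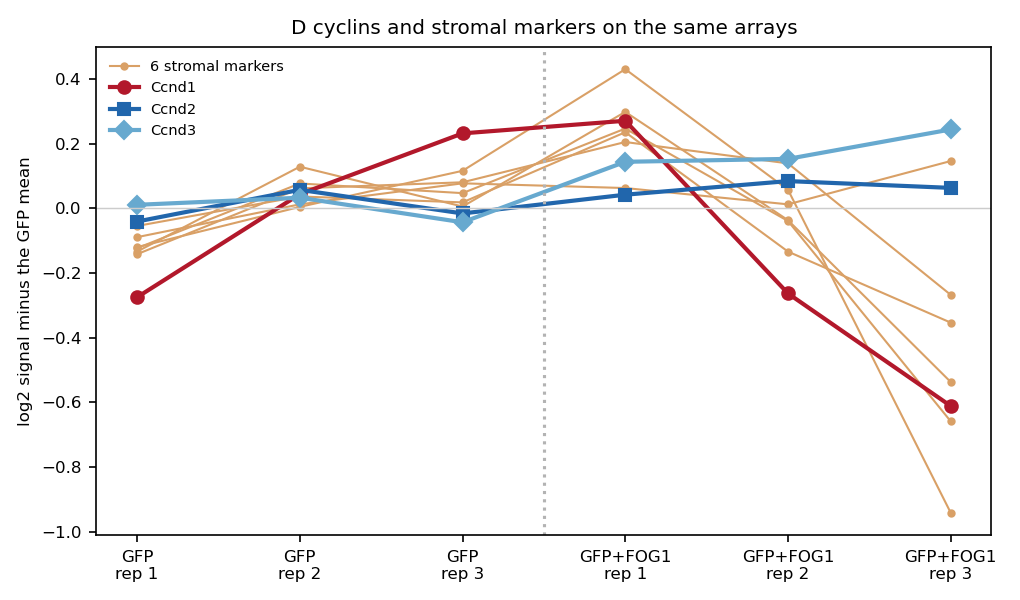
Log2 signal minus the GFP-alone mean of each gene on the 6 arrays, for Ccnd1, Ccnd2, Ccnd3 and the 6 stromal markers. Lines join the values of 1 gene and do not mean that replicates have an order. Ccnd1 and 5 of the 6 stromal markers are highest on FOG1 replicate 1 and lowest on FOG1 replicate 3, while Ccnd2 and Ccnd3 are not.

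Cdk4, the kinase whose promoter is printed above, lies at chr10:127063535-127067288. Its signal was 12.40, 12.46 and 12.38 with GFP alone and 12.45, 12.44 and 12.43 with FOG1. The FOG1 arrays fell inside the range of the GFP-alone arrays. A log2 change of 0.03 was estimated (SE 0.044, 95% interval -0.08 to 0.13; limma adjusted p = 0.83).

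Cdk6, the kinase that partners D cyclins in many blood cells, lies at chr5:3341004-3531008. Its signal was 10.90, 10.97 and 10.92 with GFP alone and 10.98, 11.03 and 11.03 with FOG1. Every FOG1 array was above every GFP-alone array, but FOG1 replicate 1 and GFP-alone replicate 2 were only 0.0058 apart. For this gene the log2 change was 0.08 (SE 0.045, 95% interval -0.03 to 0.19; limma adjusted p = 0.49).

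Cdkn1b encodes p27, a Cip/Kip inhibitor that accumulates in resting cells, and lies at chr6:134920401-134925525. At its brighter probe set the signal was 10.45, 10.44 and 10.47 with GFP alone and 10.41, 10.40 and 10.41 with FOG1. Every FOG1 array was below every GFP-alone array, with very little scatter: the within-group SD of 0.012 was at percentile 0.288 of all probe sets. The log2 change was -0.05 (SE 0.040, 95% interval -0.14 to 0.05; limma adjusted p = 0.66). The dimmer probe set, at means of 7.84 and 7.86, had overlapping groups and a difference of 0.02 (limma adjusted p = 0.94), so the gene's probe sets differed in sign.

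Cdkn2c encodes p18, an INK4 inhibitor with a known part in limiting division of B-lineage cells, and lies at chr4:109660876-109666756. Its signal was 9.33, 9.21 and 9.25 with GFP alone and 9.35, 9.33 and 9.36 with FOG1. The groups met at GFP-alone replicate 1, which lay between FOG1 replicates 1 and 2. FOG1 minus GFP alone came to a log2 change of 0.08 (SE 0.049, 95% interval -0.04 to 0.20; limma adjusted p = 0.53).

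Cdkn2a and Cdkn2b are neighbouring genes at chr4:89274473-89294619 and chr4:89306289-89311032. Cdkn2a encodes both an INK4 inhibitor and, from another start and reading frame, the ARF protein that stabilises p53, and its single probe set was annotated to the gene as a whole. Its signal was 7.32, 7.34 and 7.33 with GFP alone and 7.48, 7.32 and 7.42 with FOG1. Replicates 1 and 3 with FOG1 lay above the GFP-alone arrays and replicate 2 lay among them, and the log2 change was 0.08 (95% interval -0.06 to 0.21; limma adjusted p = 0.59).

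Cdkn2b, whose product p15 is an INK4 inhibitor known as a target of TGF-beta signals, was at 6.48, 6.72 and 6.71 with GFP alone and at 6.56, 6.58 and 6.60 with FOG1. The FOG1 arrays lay between the lowest and the other GFP-alone arrays. This gave a log2 change of -0.06 (95% interval -0.24 to 0.12; limma adjusted p = 0.77). Cdkn2b was the only probe set of the 10 below the median signal, where background can make up some of the signal and changes come out too small. Cdkn2a lay just above it.

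**Figure D3:**
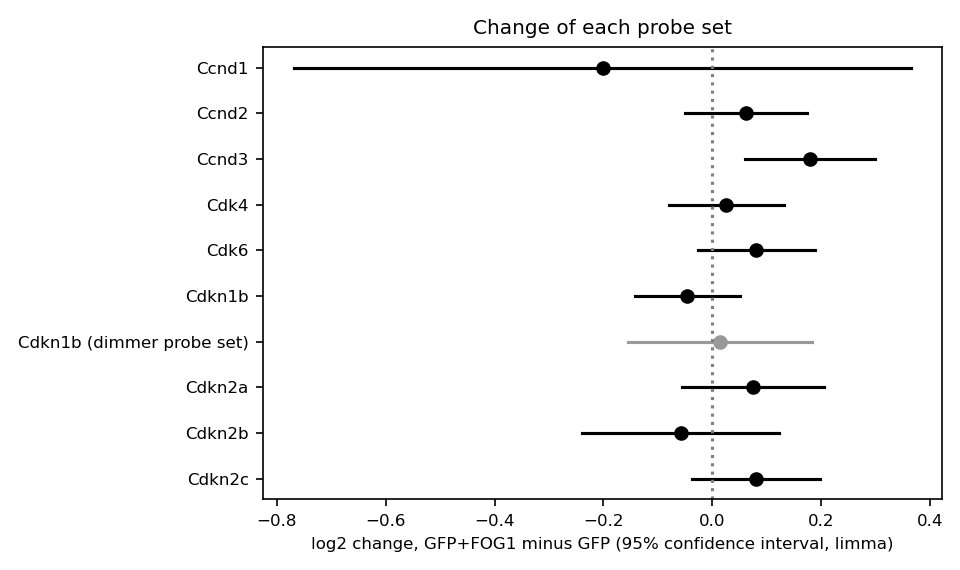
Log2 change (GFP+FOG1 minus GFP alone) of the 10 probe sets, with 95% confidence intervals from limma (3 arrays per group, not adjusted for the number of probe sets). The interval of Ccnd1 spans -0.77 to 0.37, the intervals of the other 8 genes stay within -0.24 to 0.30, and only that of Ccnd3 leaves out 0.

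For the 8 genes other than Ccnd1 the 95% intervals, each taken alone, ran from 0.848-fold to 1.23-fold. Changes of the array signal beyond that size in either direction lay outside these intervals, whereas for Ccnd1 the interval reached from 0.587-fold to 1.29-fold. The lowest bound was that of Cdkn2b, whose dim signal can make changes come out too small. All these intervals rest on the spread among these arrays, which may be technical.

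The other genes of the step from G1 to S phase were read from a list of 32, all measured. None passed (0 of 32, against 0.161% of all genes), and 4 had an unadjusted p under 0.05, against 11.0% of all genes (limma). The median log2 change was 0.06, with 26 positive, against 45.8% of all genes. The FOG1 arrays lay wholly above the GFP-alone arrays for 12 and wholly below for 1, against 10.2% and 10.5% of all genes. The gene of cyclin E2, Ccne2, which activates CDK2 after the D cyclins have acted, was at 9.31, 9.22 and 9.34 with GFP alone and at 9.50, 9.63 and 9.56 with FOG1 (log2 change 0.27, SE 0.057; limma adjusted p = 0.187).

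Rbl1, which encodes the retinoblastoma relative p107, was at 0.19 (SE 0.045; limma adjusted p = 0.22). Ccnh, the cyclin of the kinase complex that activates CDKs, was at 0.27 (SE 0.072; limma adjusted p = 0.26). Fbxo31, which encodes a ubiquitin ligase subunit that targets cyclin D1, was the gene of this list with groups apart in the other direction, at -0.12 (SE 0.050; limma adjusted p = 0.40). The remaining inhibitor genes Cdkn1c and Cdkn2d were at 0.07 and -0.05 (limma adjusted p = 0.57 and 0.73).

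Of 25 listed regulators that act on D cyclin or inhibitor genes, 23 were measured and none passed, against 0.161% of all genes. At an unadjusted p under 0.05 (limma) there were 3, against 11.0% of all genes, and the median log2 change was 0.01. Il7r, the interleukin 7 receptor chain that sustains division of B-cell precursors, was at 11.17, 11.09 and 11.14 with GFP alone and at 11.29, 11.35 and 11.36 with FOG1 (log2 change 0.20, SE 0.046; limma adjusted p = 0.21). Bach2, which encodes a transcriptional repressor made in B-lineage cells, was at 0.20 (limma adjusted p = 0.27). Foxm1, a factor of the G2 programme, was at 0.14, and Mxd1, an antagonist of MYC, at -0.13 (limma adjusted p = 0.37 and 0.40). Myc itself was at -0.03 (SE 0.063; limma adjusted p = 0.87).

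Of the 14 measured p53 targets, a list chosen for Cdkn1a, none passed and 2 had an unadjusted p under 0.05 (limma), against 11.0% of all genes. The median log2 change was -0.02, with 5 positive and 9 negative, where 45.8% of all genes were positive. Those with the smallest p were Gtse1 (0.15), Zmat3 (0.17), Btg2 (-0.14) and Sesn2 (-0.17), with limma adjusted p between 0.36 and 0.52. Mdm2, which encodes the ligase that degrades p53, was at -0.04 with overlapping groups.

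Proliferation markers are given beside the cyclins because they vary with the share of dividing cells. Of 19 measured, none passed and 7 had an unadjusted p under 0.05 (limma), against 11.0% of all genes. Over the other settings of the analysis that count ran from 2 (without GFP-alone replicate 1, for example) to 12 (a robust fit with a variance trend). The log2 change was positive for 18, against 45.8% of all genes, with a median of 0.10. The FOG1 arrays lay wholly above the GFP-alone arrays for 12, against 10.2% of all genes. Their mean signal was 11.00 to 11.02 with GFP alone and 11.08 to 11.14 with FOG1. The replication helicase genes Mcm3 and Mcm6 were at 0.26 and 0.14, the checkpoint gene Bub1 at 0.17 and the topoisomerase gene Top2a at 0.11 (limma adjusted p = 0.154, 0.35, 0.26 and 0.36). The part of the share of dividing cells in the value of Ccnd3 was not tested.

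**Figure D4:**
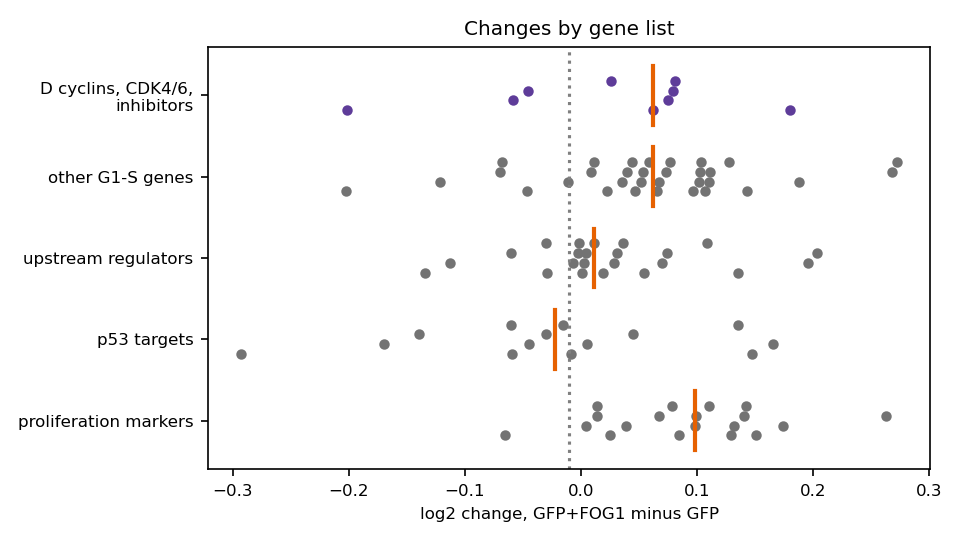
Log2 change (GFP+FOG1 minus GFP alone) of each measured gene in 5 lists, with the list median as an orange bar and the median of all genes, -0.01, as a dotted line. Points are spread vertically only to keep them apart. The medians are 0.06 for the 9 genes described here, 0.06 for other G1-S genes, 0.01 for upstream regulators, -0.02 for p53 targets and 0.10 for proliferation markers.

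The 3 genes whose centred values over the 6 arrays lay nearest to those of Ccnd3 were Dctpp1, Fam83f and Cd93, at a root mean square difference of 0.016 log2 units for each. Their log2 changes were 0.18, 0.18 and 0.16, and none passed (limma adjusted p = 0.24, 0.23 and 0.31). They were picked for their nearness to Ccnd3, so changes of a like size follow from the choice. Fam83f, at 5.73 to 5.97, lay below the median signal.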

How the data were processed

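RNA of 6 samples was amplified with a whole-transcript kit and hybridised to Affymetrix mouse gene arrays, per the labels' protocols. The deposited values are log2 signals, 1 per probe set and array. Per the submitters' processing notes they were made with affy. How background, normalization and probe set summary were handled is not given in the sources used here. A normalization between arrays can hide a shift that most genes share. That the scale is log2 was inferred from the range, 3.12 to 14.07. Groups and replicate numbers come from the sample titles.

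Groups were tested in R 4.3.3 with limma 3.58.1 (a linear model with moderated variances, no block, no filter), and p-values were adjusted by Benjamini-Hochberg over 34760 probe sets with a threshold of 0.05. The number of arrays limits the precision. The fit was tested on simulated data. Probe sets were named from the platform annotation (21640 with 1 symbol, 1321 with several, 11799 with none), with symbols looked up in RefSeq for GRCm38.p6. A gene's value is that of its brightest 1-symbol probe set.

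The genes and lists were chosen with earlier results of these data known. All 10 genes were named, as were the 4 genes with the smallest p of each pathway list and the 3 nearest in pattern to the gene with the smallest p. Other genes named (Cdkn1c, Cdkn2d, Myc, Mdm2 and the markers) and the neighbours of Ccnd1, the pairs of genes and the stromal covariate were added after the values were seen. Alternatives were quantile normalization, median centring, a filter on dim probe sets, 1-symbol probe sets only, array weights, a robust fit with a variance trend, a replicate block, the mean over probe sets and leaving out each array. Figures were drawn with matplotlib 3.10.9.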

Additional observations from a re-analysis of the deposited data

How the results depend on the processing

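None of the probe sets passed under the alternatives run for all of them (10 tested, or 9 without dim probe sets), with 1 or 2 at an unadjusted p under 0.05 in each (limma). The mean over probe sets was run for Cdkn1b alone, which did not pass. None of the other G1-S genes, upstream regulators, p53 targets or proliferation markers passed under those alternatives either. Signs held for 8 of the 9 genes. Ccnd1 ranged from -0.437 to 0.00358 when 1 array was left out, the latter without FOG1 replicate 3 (limma adjusted p = 0.998), against -0.20 with all arrays. Over all probe sets 78 passed, and 17 to 38 did without 1 array, 51 with the stromal covariate and 9 with the replicate block. The count was 64 after median centring, 73 after quantile normalization, 87 with array weights, 102 among 1-symbol probe sets, 115 of 17671 without dim probe sets and 116 with a variance trend. Fewer samples or residual degrees of freedom are one reason for the lower counts by construction. Deviations from the group means correlated at -0.068, 0.0084 and -0.04 between arrays of the same number, so pairing by number is not borne out. The replicate block left Zfpm1 (0.74) short of the threshold (limma adjusted p = 0.0975). Dim signal limits Cdkn2b, which had no value without dim probe sets. The logarithmic values need no pseudocount.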
